A study of Homo sapiens with 6 samples.

Results

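The genes described here are the 4 receptors of TRAIL (TNFRSF10A, TNFRSF10B, TNFRSF10C and TNFRSF10D), TRAIL itself (TNFSF10), the related death receptor FAS, and 3 proteins that act at the receptor tail, namely FADD, CASP8 and CFLAR. They were taken by symbol from the 2 deposited signal tables, and all 9 were found among the 34690 symbols listed there. Signals came from 6 Illumina BeadChip arrays labelled as SNU761, an established line from hepatocellular carcinoma, the commonest primary cancer of the liver. Of these, 3 arrays held cells given sorafenib, a multikinase inhibitor used against this cancer, and 3 held control cells given its solvent DMSO, each for 24 h. The labels print the sorafenib dose as 3 mM, which is far above doses usual in culture, so that the unit is uncertain. Arrays were numbered 1 to 3 in each group, and a pair below is made of the 2 arrays, 1 per group, that share a number. The series' design text also names Huh7, Hep3B and HepG2, whereas every array here carries the label SNU761. Whether the arrays of a group came from separate cultures is not stated, and p-values measure only the spread between these arrays.

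TRAIL and the FAS ligand are death ligands of the tumour necrosis factor family. When one binds its receptor, the death domain in the receptor's tail recruits the adaptor FADD, which brings in the initiator caspase CASP8 to cut itself and then the executioner caspases. TNFRSF10A (DR4) and TNFRSF10B (DR5) carry a working death domain. TNFRSF10C (DcR1) is held in the membrane by a lipid anchor and has none, and TNFRSF10D (DcR2) has a truncated one, so that both bind TRAIL without passing on the death signal and are called decoy receptors. CFLAR, known as FLIP, resembles CASP8 but lacks its protease activity and limits CASP8 activation. In liver cancer cells these genes are of interest because many lines resist TRAIL unless a further drug is given.

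The groups did not hold like arrays only. Pearson's r over tested genes, which are not independent points, was within a pair 0.966 to 0.984, whereas arrays numbered 3 correlated with the other arrays of their own group at 0.801 to 0.833. Of 8 hepatocyte markers, 5 to 8 were detected per array, with a summed signal of 33653 to 108270 units on sorafenib arrays and 38183 to 121080 units on control arrays. On both arrays numbered 3 the secreted liver proteins APOA1, APOA2 and TTR were near background, at log2 signals of 5.21 to 5.67, and ALB was at 14.05 in sorafenib and 14.42 in control, against 8.97 to 9.88 on the other 4 arrays. AFP had a mean log2 signal of 6.48 on the arrays numbered 3, against 12.37 on the other 4. The remaining markers differed less, with SERPINA1 at 13.6 against 13.0, FGB at 12.2 against 12.3 and HNF4A at 5.79 against 6.31. Of 7 leukocyte markers, 2 to 4 were detected per array, PTPRC and CD3E on none, with a summed signal of 2058 to 24762 units in sorafenib and 2269 to 19291 units in control, the highest of each on array 3. The labels give SNU761 for all 6 arrays, but whether both arrays numbered 3 held the same line as the other 4 was not tested, and n = 3 pairs assumes that they did. The part of this difference in the results was not tested either. For each tested gene whose mean is given, the mean of pairs 1 and 2 is therefore given as well.

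Differences are given as log2 of sorafenib over control after background correction and quantile normalization, with the mean and SD over the 3 pairs. The test was limma's moderated test with the pair as a block, adjusted by the Benjamini-Hochberg method over the 14641 symbols detected (p under 0.05) on 3 or more of the 6 arrays. Of the 9 genes, 6 passed this detection filter, and TNFRSF10C, FAS and CASP8 did not. At an adjusted p under 0.05 limma called 0 of the 6, and 0 of all 14641 symbols (0%). At an unadjusted p under 0.05 it called 2 of the 6, TNFRSF10D and FADD, against 2776 symbols in all (19.0%). A blocked limma fit that adds robust estimation and lets the variance follow the mean, referred to as the fit with the variance trend and exploratory because it was known to call more genes, called 1 of the 6, TNFRSF10D, against 155 symbols (1.06%), 72 of them lower in sorafenib (0.492%) and 83 higher (0.567%). Among the 6 genes, 4 were lower in sorafenib in all 3 pairs, against 22.2% of all tested symbols, and 1 was higher in all 3, against 21.5%. Their median log2 difference was -0.28, against -0.0006 over all tested symbols. With 3 pairs an exact sign-flip test of a single gene cannot give a p below 0.25.

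TNFRSF10D, the decoy receptor with the truncated death domain, had the largest difference of the 9 genes. Its deposited signal was 341, 218 and 220 units on sorafenib arrays 1, 2 and 3, against 556, 475 and 431 units on control arrays 1, 2 and 3. On the normalized log2 scale these were 7.74, 6.76 and 6.68 in sorafenib, against 8.65, 8.47 and 8.25 in control. All sorafenib arrays were below all control arrays, including both arrays numbered 3, a pattern shared by 3.25% of tested symbols. The log2 differences were -0.90, -1.72 and -1.57 in pairs 1, 2 and 3, with a mean of -1.40 ± 0.43 (SD, n = 3 pairs), or 0.380 times the control level, with a 95% interval of -1.89 to -0.90. In all, 28 of 14641 tested symbols (0.191%) had a mean difference as low or lower. In limma's blocked fit its adjusted p was 0.100, short of the threshold, and with the variance trend it passed (adjusted p = 0.0404). It also passed in the blocked limma fit of pairs 1 and 2 alone (mean -1.31, adjusted p = 0.0435), which called 281 symbols (1.92%), and did not pass without pair 1 (adjusted p = 0.256) or without pair 2 (adjusted p = 0.228). With background estimated from all symbols the difference was -0.16 (adjusted p = 0.21), the background SD then being 604 to 837 units on sorafenib arrays and 654 to 729 units on control arrays, larger than the signal of this gene. Lower signal of the bulk RNA cannot be told apart between fewer cells that express the gene and less RNA per cell.

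**Figure D1:**
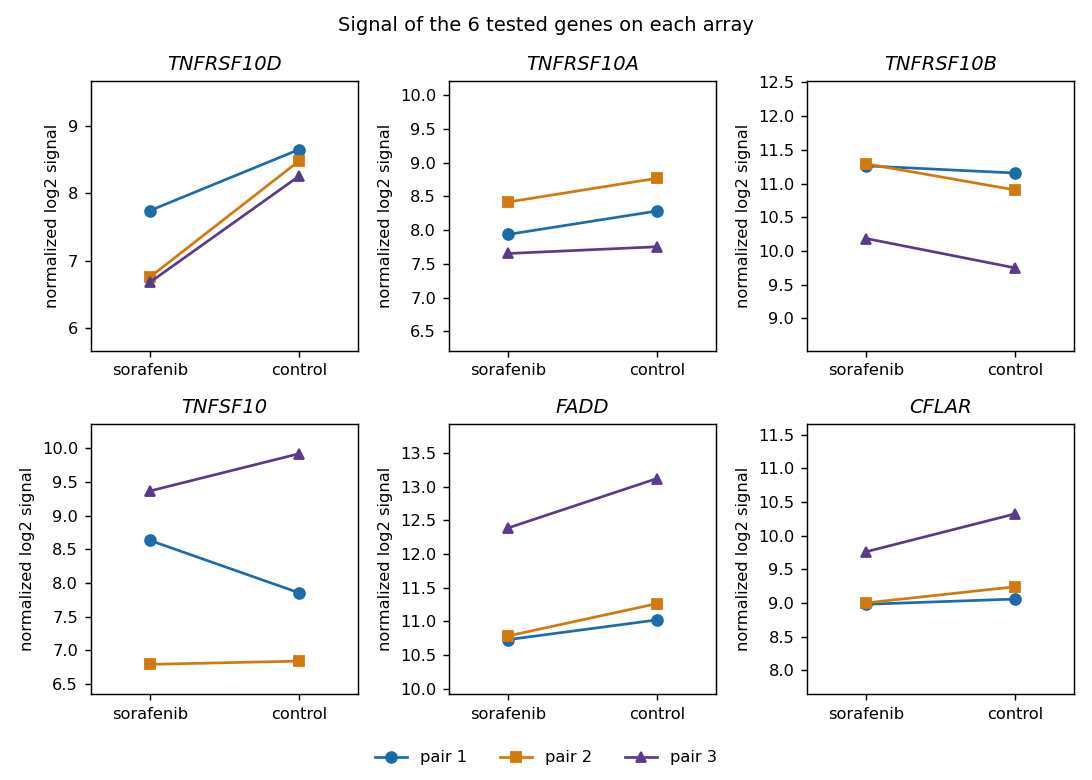
Normalized log2 signal (vertical axis, each panel spanning the same range) of the 6 tested genes on sorafenib and control arrays, with a line joining the arrays of each pair. TNFRSF10D was lower in sorafenib in every pair with no overlap of the groups, whereas the TNFSF10 lines run in different directions and array 3 stands apart for TNFRSF10B, TNFSF10, FADD and CFLAR.

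The 2 TRAIL receptors that carry a working death domain had smaller mean differences, of opposite sign, and neither passed the test. TNFRSF10A had log2 signals of 7.94, 8.42 and 7.65 on sorafenib arrays 1 to 3, against 8.28, 8.77 and 7.75 on control arrays 1 to 3. It was a little lower in sorafenib in every pair, but the groups overlapped. The differences were -0.35, -0.35 and -0.10, with a mean of -0.27 ± 0.14 (SD, n = 3 pairs; limma adjusted p = 0.411; 95% interval -0.65 to 0.12), and the mean was -0.05 with background estimated from all symbols. TNFRSF10B had log2 signals of 11.26, 11.29 and 10.18 on sorafenib arrays 1 to 3, against 11.16, 10.91 and 9.75 on control arrays 1 to 3. It was a little higher in sorafenib in every pair, while both arrays numbered 3 lay below the other 4. The differences were 0.11, 0.39 and 0.43, with a mean of 0.31 ± 0.18 (limma adjusted p = 0.354; 95% interval -0.08 to 0.70), and 17.4% of tested symbols had a mean as high or higher. Over pairs 1 and 2 the means were -0.35 for TNFRSF10A and 0.25 for TNFRSF10B. The detection p-values of TNFRSF10B were not those of a single probe, so that its signal may combine probes for different transcripts.

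The TRAIL receptor genes are neighbours on chromosome 8, where TNFRSF10B is followed by TNFRSF10C, TNFRSF10D and TNFRSF10A with no other protein-coding gene between them in the RefSeq annotation. TNFRSF10D and TNFRSF10A were lower in sorafenib in all 3 pairs, TNFRSF10B was higher in all 3 with an interval that spans 0, and TNFRSF10C was not detected. Pair by pair, the log2 difference of TNFRSF10D minus that of TNFRSF10A was -0.56, -1.36 and -1.47, and minus that of TNFRSF10B it was -1.01, -2.10 and -2.0. The difference of TNFRSF10B was above that of TNFRSF10A in all 3 pairs, by a mean of 0.58 ± 0.15. Each of the 4 such contrasts computed had an exact two-sided sign-flip p of 0.25, the smallest that 3 pairs allow, also after adjustment over the 4.

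**Figure D2:**
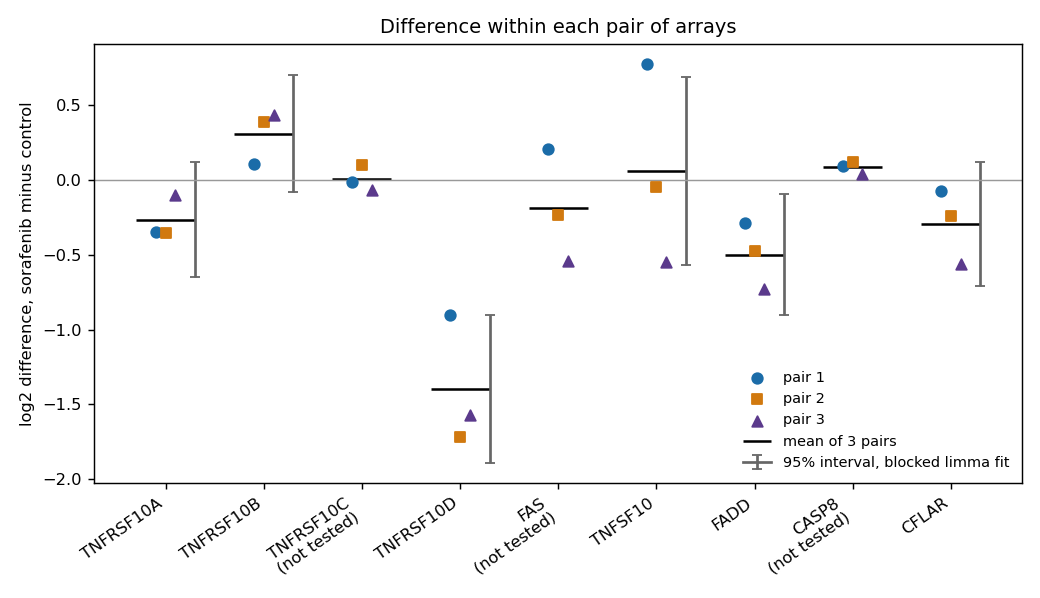
Log2 difference of sorafenib minus control (vertical axis) for the 9 genes (horizontal axis), with a point for each pair, a line at the mean and a bar for the 95% interval of the blocked limma fit where the gene was tested. Intervals of TNFRSF10D and FADD lay below 0, without adjustment for the number of genes tested, and the other 4 spanned 0.

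The lipid-anchored decoy receptor TNFRSF10C and the death receptor FAS gave signals near background. TNFRSF10C had 125, 164 and 153 units on sorafenib arrays 1 to 3, against 130, 160 and 160 units on control arrays 1 to 3. The background mean estimated for these arrays was 112 to 139 units, with an SD of 20.1 to 31.8, and TNFRSF10C was detected on 0 of 6 arrays. FAS, which binds the FAS ligand, had 110, 130 and 174 units on sorafenib arrays 1 to 3, against 102, 149 and 205 units on control arrays 1 to 3. It was detected only on control array 3, where its detection p was 0.0412, and its value on sorafenib array 3 just missed (0.0561). With 2 of 3 control arrays and 3 of 3 sorafenib arrays not above background, no fold is given for FAS. Such signals leave the presence of the RNA undecided.

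**Figure D3:**
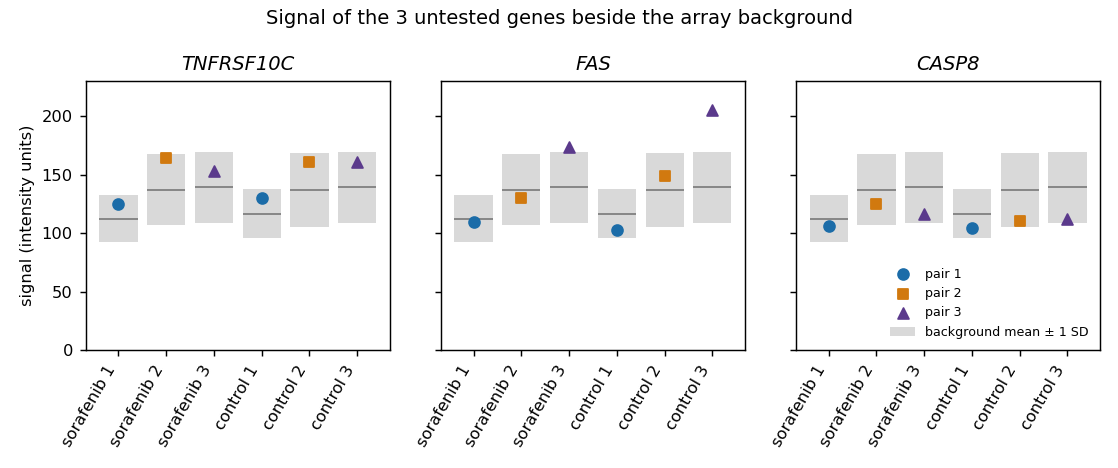
Deposited signal in intensity units (vertical axis) of TNFRSF10C, FAS and CASP8 on each sorafenib and control array, with grey bars for the estimated background mean ± 1 SD of that array. Points lie within or close to the bars, except FAS on control array 3, at 205 units. FAS on sorafenib array 3, at 174 units, lies just above its bar.

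The ligand TNFSF10 showed no common direction. Its log2 signals were 8.63, 6.79 and 9.37 on sorafenib arrays 1 to 3, against 7.86, 6.84 and 9.92 on control arrays 1 to 3. It was higher in sorafenib in pair 1, nearly level in pair 2 and lower in pair 3, and the groups overlapped widely. The differences were 0.77, -0.05 and -0.55, with a mean of 0.06 ± 0.67 (SD, n = 3 pairs; limma adjusted p = 0.918; 95% interval -0.57 to 0.69). The mean was 0.36 without pair 3, and its sign turned without pair 1 (-0.30) and with background estimated from all symbols (-0.05). Its level differed more between array numbers than between treatments, with a mean log2 signal of 9.64 on the arrays numbered 3, against 7.53 on the other 4 arrays.

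TNFSF10 is an interferon-induced gene, and its RefSeq promoter (GRCh38.p14, chr3:172523381-172523680, minus strand, 250 bases before to 50 after the start) is shown because it holds interferon response elements and a TATA box, which the FADD window and the CFLAR window printed further on lack. Capitals mark 2 cores of an interferon response element, spelled GAAANNGAA and found here on the other strand, and 1 TATA box, spelled TATAAA.
TNFSF10 promoter: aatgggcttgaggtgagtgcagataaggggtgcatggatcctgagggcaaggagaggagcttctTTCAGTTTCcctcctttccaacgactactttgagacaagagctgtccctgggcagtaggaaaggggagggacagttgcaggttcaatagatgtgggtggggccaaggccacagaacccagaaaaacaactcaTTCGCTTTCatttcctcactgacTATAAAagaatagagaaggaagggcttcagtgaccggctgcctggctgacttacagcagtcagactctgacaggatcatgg
Searched on both strands, these motifs occurred in 8.11% and 11.5% of all 35116 RefSeq promoters of the same length. The promoter is 51.0% G and C with 3 CpG dinucleotides, against medians of 58.7% and 14 over all promoters. Such matches are letters in a window and do not show binding.

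FADD, the adaptor that links death receptors to CASP8, had the next largest difference among the 6 tested genes. Its log2 signals were 10.73, 10.79 and 12.39 on sorafenib arrays 1 to 3, against 11.02, 11.26 and 13.12 on control arrays 1 to 3. Every sorafenib array was below its own control, but sorafenib array 3 was above control arrays 1 and 2, so that the groups overlapped. The differences were -0.29, -0.48 and -0.73, with a mean of -0.50 ± 0.22 (SD, n = 3 pairs), or 0.707 times the control level. In limma's blocked fit the unadjusted p was 0.0227 and the adjusted p 0.199, with a 95% interval of -0.91 to -0.10, and 8.73% of tested symbols had a mean as low or lower. The unadjusted p of limma's fit was 0.514 without the block, and with it 0.0484, 0.0512 and 0.109 when pair 1, 2 or 3 was left out. Over pairs 1 and 2 the mean was -0.39.

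CASP8, the initiator caspase that FADD recruits, was not detected on any of the 6 arrays. Its signals were 106, 125 and 116 units on sorafenib arrays 1 to 3, against 104, 111 and 112 units on control arrays 1 to 3. All were below the estimated background mean of their array, and the order of such values carries no information. The detection p-values of CASP8 and FAS were not those of a single probe, so that their signals may be combined over probes, and a transcript that only some probes measure may be understated.

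CFLAR, the FLIP gene, was detected on all arrays. Its log2 signals were 8.98, 9.0 and 9.76 on sorafenib arrays 1 to 3, against 9.06, 9.24 and 10.32 on control arrays 1 to 3. It was lower in sorafenib in every pair, and the groups overlapped. The differences were -0.08, -0.24 and -0.56, with a mean of -0.29 ± 0.25 (SD, n = 3 pairs; limma adjusted p = 0.399; 95% interval -0.71 to 0.12). The mean over pairs 1 and 2 was -0.16, so that pair 3 contributed most of the size. The log2 difference of FADD minus that of CFLAR was -0.21, -0.24 and -0.17 in pairs 1, 2 and 3. The signal does not separate the long and the short splice forms of FLIP, and CFLAR lies on chromosome 2 with CASP10 between it and CASP8.

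FADD and CFLAR were lower in all 3 pairs and higher on arrays numbered 3, and their RefSeq promoters are shown for that reason. FADD has 1 listed start (GRCh38.p14, chr11:70203046-70203345, plus strand), and CFLAR has 4, of which the one listed first is given (GRCh38.p14, chr2:201118466-201118765, plus strand). Capitals mark GC boxes, spelled GGGCGG, and a match to the AP-1 pattern as searched here, TGANTCA with any base at N, on either strand.
FADD promoter: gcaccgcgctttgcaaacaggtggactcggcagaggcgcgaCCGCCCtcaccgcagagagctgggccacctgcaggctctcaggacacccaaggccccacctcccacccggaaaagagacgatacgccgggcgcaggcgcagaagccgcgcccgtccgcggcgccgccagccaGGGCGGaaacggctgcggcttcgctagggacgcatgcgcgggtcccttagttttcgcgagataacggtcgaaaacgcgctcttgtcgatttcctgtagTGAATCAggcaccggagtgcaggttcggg
CFLAR promoter: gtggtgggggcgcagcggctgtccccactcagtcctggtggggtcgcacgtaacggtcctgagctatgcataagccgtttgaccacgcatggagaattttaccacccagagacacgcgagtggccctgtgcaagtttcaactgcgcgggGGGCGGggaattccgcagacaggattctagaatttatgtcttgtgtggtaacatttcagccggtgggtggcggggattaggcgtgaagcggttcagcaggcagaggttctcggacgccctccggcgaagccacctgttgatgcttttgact
The FADD window held 2 GC boxes and, near the start, 1 AP-1 pattern match that reads TGAATCA. The CFLAR window held 1 GC box. Across all promoters 45.0% held a GC box and 7.71% a match to this AP-1 pattern. The FADD window was 66.7% G and C with 36 CpG dinucleotides, and the CFLAR window was 58.7% with 21. The windows of the other 3 CFLAR starts were 38.3%, 40.7% and 56.3% G and C with 0, 1 and 22 CpG dinucleotides. The second of these held 1 interferon response element and 1 AP-1 pattern match, so that the window printed does not stand for all CFLAR starts. An element of CHOP and ATF4, spelled TGATGNAA, and an ETS core, spelled CCGGAAG, were found in neither of these windows nor in that of TNFSF10, against 3.62% and 10.3% of all promoters.

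For 5 of the 6 tested genes the mean level differed more between the arrays numbered 3 and the other 4 than between treatments, and TNFRSF10D was the exception. Comparing the arrays numbered 3 with the other 4, as a description with no test, mean log2 signals were 12.75 against 10.95 for FADD, 10.04 against 9.07 for CFLAR and 9.64 against 7.53 for TNFSF10. The reverse held for TNFRSF10B, at 9.97 against 11.15, and for TNFRSF10A, at 7.70 against 8.35. TNFRSF10D was at 7.46 against 7.90, a difference of -0.44, smaller than that of -1.40 between treatments. FAS, which did not pass the detection filter, was at 6.04 against 5.15. Thus FADD, CFLAR and TNFSF10 had higher values, and the TRAIL receptors TNFRSF10A and TNFRSF10B lower ones, on the arrays numbered 3. Of the liver markers, APOA1, APOA2, TTR, AFP and ALB stood apart on these arrays, and SERPINA1 and FGB did not.

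Across the 6 arrays, the tested symbols whose log2 signal followed TNFRSF10B most closely were PPPDE1 (Pearson's r = 0.9996), GATA4 (0.9988), SAP130 (0.9985), SNORD104 (0.9981) and RPLP0 (0.9967). Among the other 8 genes of the set, r with TNFRSF10B was from -0.998 for FADD to 0.656 for CASP8, whose signals are background. In TNFRSF10B both arrays numbered 3 lay apart from the other 4. How far that division sets these values was not tested, and they are a description over 6 arrays with no p. DDIT3, the stress factor CHOP that is known to act on the TNFRSF10B promoter, had differences of 1.77, 3.03 and 3.34 in pairs 1, 2 and 3 (limma adjusted p = 0.100, and 0.0197 with the variance trend). Those of TNFRSF10B, which was not called (limma adjusted p = 0.354), were 0.11, 0.39 and 0.43. Whether the 2 genes are linked in these cells was not tested, and the TNFRSF10B promoter was not examined.

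Further genes of the extrinsic pathway came from lists written with general knowledge. Of 49 listed, all were found (OTULIN under its older name FAM105B) and 33 passed the detection filter. The blocked limma fit called 0 of the 33, with 6 at an unadjusted p under 0.05 (18.2%, against 19.0% of all symbols), and the fit with the variance trend called 1, CYCS. In all 3 pairs 10 were higher and 8 lower in sorafenib, or 30.3% and 24.2%, against 21.5% and 22.2% of all symbols. Their median log2 difference was 0.03.

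Among the 4 tested receptors, 0 were called and the median difference was -0.26. TNFRSF11B, or osteoprotegerin, a secreted receptor that can bind TRAIL, had log2 signals of 7.93, 7.86 and 8.31 in sorafenib and 8.45, 8.77 and 10.10 in control. All sorafenib arrays were below all control arrays, as for 3.25% of tested symbols. The mean difference was -1.07 ± 0.65 (limma adjusted p = 0.131), or -0.71 over pairs 1 and 2. TNFRSF21 (DR6), a death domain receptor, differed by -0.26 ± 0.27 (-0.28 over pairs 1 and 2). Of the ligands, 3 of 6 were tested and 0 called, and FASLG and TNF did not pass the detection filter. LTA was at 0.14 ± 0.16 (0.17 over pairs 1 and 2) and TNFSF15 at -0.17 ± 0.17 (-0.21 over pairs 1 and 2).

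Among adaptors and modifiers of the receptor complex, 13 of 18 were tested, 0 were called, and the median difference was 0.25. RIPK1, a kinase that carries survival or death signals at these receptors, had log2 signals of 7.59, 6.87 and 7.96 in sorafenib, against 8.41, 8.05 and 8.80 in control. Its groups did not overlap, and its differences of -0.82, -1.18 and -0.84 averaged -0.95 ± 0.21 (limma adjusted p = 0.104; 0.0624 with the variance trend). TNFAIP3 (A20), which edits ubiquitin chains and restrains NF-kB, differed by 0.71 ± 0.58 (limma adjusted p = 0.199). Its differences were 0.71, 1.30 and 0.14 in pairs 1, 2 and 3, with a mean of 1.00 over pairs 1 and 2.

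Of the downstream executioners, 8 of 10 were tested, 0 were called by the blocked fit, and the median difference was -0.22. CYCS, cytochrome c, which activates caspases once released from mitochondria, had log2 signals of 6.79, 6.35 and 5.80 in sorafenib, against 8.04, 7.73 and 8.32 in control. It was lower in every pair without overlap of the groups, as for 3.25% of tested symbols. Its mean difference was -1.72 ± 0.70 (limma adjusted p = 0.100, and 0.0404 with the variance trend), though this gene has many near-identical pseudogenes that a probe may not separate. On sorafenib array 3 CYCS was not detected, at 176 units against a background mean of 139 units with an SD of 30.6. The size of its difference in pair 3, -2.51, is therefore uncertain. In pairs 1 and 2 the CYCS differences were -1.25 and -1.38, with a mean of -1.32. BID, which links CASP8 to mitochondria, differed by -0.64, 0.24 and -0.70 in pairs 1, 2 and 3, and its groups overlapped. Its mean was -0.37 ± 0.53 (limma adjusted p = 0.42), or -0.20 over pairs 1 and 2.

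Of the inhibitors of apoptosis, which block caspases or act at receptors as ubiquitin ligases, 5 of 6 were tested, 0 were called, and the median was 0.33. BIRC3 (cIAP2), an NF-kB target, had log2 signals of 7.87, 8.88 and 9.16 in sorafenib and 6.69, 6.97 and 8.67 in control. Each sorafenib array was above its own control, with differences of 1.18, 1.91 and 0.49 and a mean of 1.19 ± 0.71 (limma adjusted p = 0.129), and over pairs 1 and 2 alone it passed in the blocked limma fit, with a mean of 1.54 (adjusted p = 0.0324, where 1.92% of all symbols were called), but not without pair 1 or without pair 2. XIAP, which binds caspases directly, differed by 0.34 ± 0.37 (0.20 over pairs 1 and 2). It was near background, detected on 2 sorafenib arrays and 1 control array. The detection p-values of BIRC3, and of BID and TNFSF15 above, were not those of a single probe, so that their signals may combine probes. The necroptosis genes RIPK3 and MLKL did not pass the detection filter. RIPK3 was not detected on any array. MLKL was detected on both arrays numbered 3, at 456 units in sorafenib and 417 units in control, and on none of the other arrays.

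**Figure D4:**
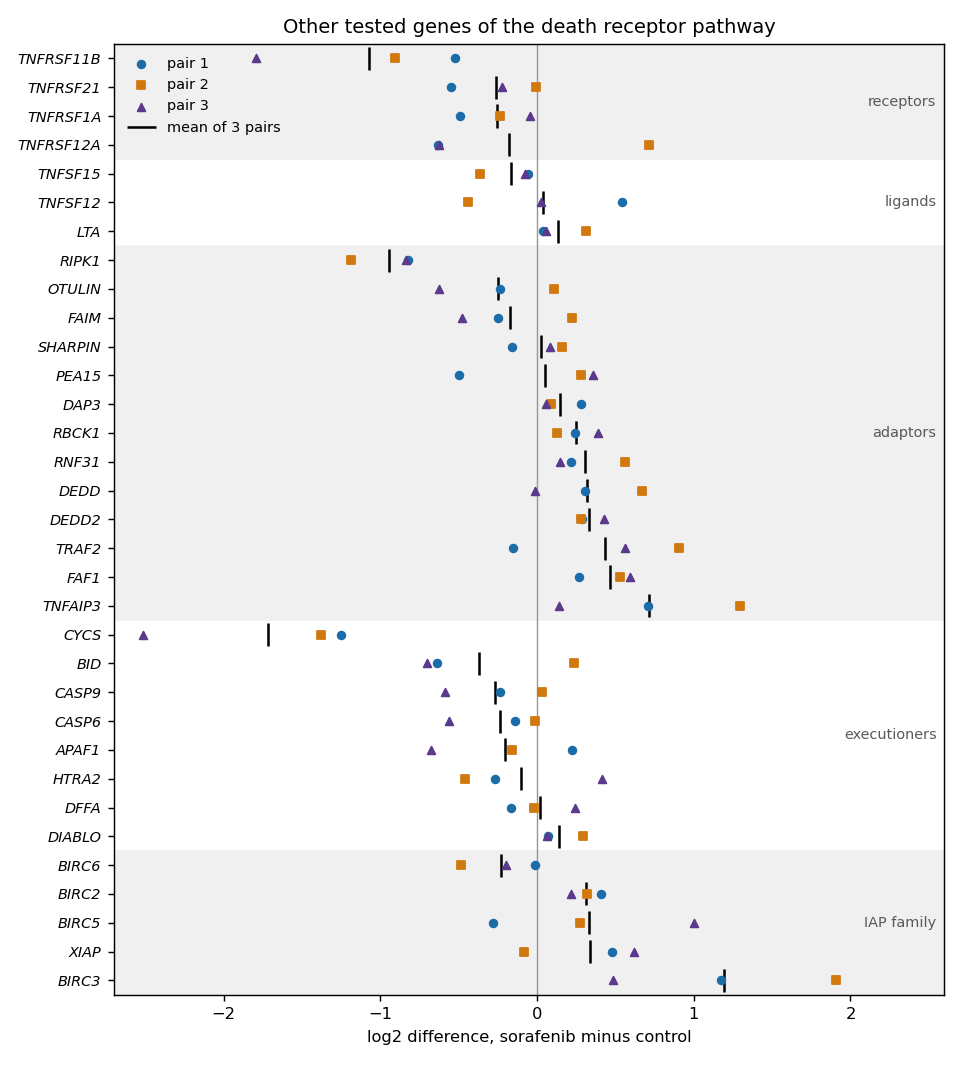
Log2 difference of sorafenib minus control (horizontal axis) for the 33 other tested genes of the pathway, in 5 groups, with a point for each pair and a vertical line at the mean of 3 pairs. CYCS, TNFRSF11B and RIPK1 lie lowest and BIRC3 highest, and the other means are within 0.5 of 0, except TNFAIP3 at 0.71.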

How the data were processed

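RNA of 3 sorafenib and 3 control samples was labelled with biotin and read on Illumina BeadChip arrays, per the labels. The authors deposited non-normalized signal intensity values, 1 per gene symbol and array, with a detection p-value beside each, per the file headers; how probes were combined is not given in the sources used here. A deposited table of log2 values was not used: its sorafenib columns held 59 values, and 0 matched their own symbol within 0.001.

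Both tables were joined by symbol. Background was corrected by normexp with offset 16 in limma 3.58.1 (R 4.3.3), estimated on the 27247 symbols whose detection p-values were multiples of 1 in 770 (tolerance 0.001), then arrays were quantile-normalized and brought to log2. limma's linear model held the group and, as a block, the array number. The deviations of same-numbered arrays from their group means correlated at 0.904, 0.790 and 0.926, and each number was treated as a pair. Intervals are at 95% and unadjusted. The number of arrays limits precision, and no depth applies. Alternatives were the background estimate, offset, scaling, filter, variance trend, array weights, block and pairs left out. Named genes were the 9 members, DDIT3, per list those called or otherwise the 2 with the largest differences, and the 5 symbols most correlated with TNFRSF10B. Others were chosen after their values were seen. A listed gene is not reported here. The members and lists were chosen with earlier results of these data known. Sequences and gene order are from RefSeq (GRCh38.p14), and promoters of 5 of the 9 members were used.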

Additional observations from a re-analysis of the deposited data

How the results depend on the processing

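Over 13 alternatives, the difference kept its sign for TNFRSF10D (-1.64 to -0.16), TNFRSF10A (-0.35 to -0.05), FADD (-0.62 to -0.39), CFLAR (-0.40 to -0.16) and TNFRSF10B (0.23 to 0.41). TNFSF10 turned negative with background from all symbols (-0.0499, also with the variance trend) and ranged from -0.30 to 0.36 when a pair was left out. The cause was not tested. CASP8, at background, was at 0.0052 with background from all symbols (also with the variance trend) and 0.0409 with offset 50. TNFRSF10D was called with the variance trend (-1.40, adjusted p = 0.0404) and had -1.64 to -1.24 when a pair was left out, called only without pair 3 (-1.31, adjusted p = 0.0435; 0.00331 with the variance trend as well, an alternative chosen after seeing the data). DDIT3 had 2.71 with the variance trend (adjusted p = 0.0197), 2.40 without pair 3 with the trend, and 2.40 to 3.18 when a pair was left out. Without the replicate block limma called 0 symbols (308 at an unadjusted p under 0.05) against 0 with it, and no member's call at an adjusted p changed, while the unadjusted p of FADD was 0.514 without it, against 0.0227 with it. Symbols called were 83 higher and 72 lower with the variance trend, 1 and 2 without background correction, 5 and 5 with array weights, 0 to 150 higher and 0 to 131 lower when a pair was left out, and 603 and 684 with the trend and without pair 3. Pathway genes called were 1 with the trend (CYCS), 0 to 2 when a pair was left out (CYCS and BIRC3 without pair 3) and 4 with the trend and without pair 3 (CYCS, BIRC3, RIPK1 and TNFAIP3). With background from all symbols and the trend, 0 symbols were called (2499 at an unadjusted p under 0.05). Signal near background limits what TNFRSF10C, FAS and CASP8 can show.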
